A study of Bos taurus with 90 samples.

Results

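The miR-130 family, with its miR-301 and miR-454 branches, was followed through 5 tissues of dairy cows on 3 forages. Its members miR-130a, miR-130b, miR-301a, miR-301b and miR-454 were taken by name from the deposited tables. They are 5 of the 388 miRNAs listed in at least 1 tissue, and all 5 are among the 289 listed in every tissue. The 18 animals were mid-lactation Chinese Holstein cows, 6 on each diet, whose forage was rice straw, corn stover or alfalfa hay. Small RNA was sequenced from the epithelium of the rumen, of the duodenum and of the jejunum, and from liver and mammary gland, which gave 90 samples, 18 per tissue and 6 per tissue and diet. Rice straw and corn stover are crop residues, and alfalfa hay is the forage of higher quality. The 6 samples of a group came from 6 cows and every cow gave all 5 tissues, but the labels do not say that a replicate number marks a cow, so tissues were compared without pairing. The labels give no batch, lane or date.

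A miRNA guides the silencing complex to messenger RNAs that pair with its seed, the bases near its 5′ end, and members of a family share that seed and hence many predicted targets. The family is best known for repression of PPARG, the nuclear receptor that drives fat cell formation, and of genes of TGF-beta signalling, and miR-130a was described early as a regulator of blood vessel growth. In mammals the members come from 3 loci. In the RefSeq gene table used here MIR130B and MIR301B lie next to each other with 0 listed genes between them, MIR301A and MIR454 lie together within the span of SKA2, a gene for a kinetochore protein, and MIR130A stands by itself. All 5 members were matched by symbol. miR-130a and miR-130b are near-identical, as are miR-301a and miR-301b, and the alignment allowed mismatches and multiple mappings, so the split of reads within these pairs is uncertain.

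Levels are given in CPM, the reads of a miRNA in every 1000000 miRNA reads of a sample. Because CPM is a share, it depends on the other miRNAs of the tissue, and in bulk tissue fewer cells of a type and less RNA per cell cannot be told apart. Mapped reads per sample, recovered from the CPM steps, lay between 937556 and 15621501, the median being 5778304.5. The tissue labels, other than that of mammary gland, were checked with marker miRNAs. miR-122 averaged 11021 CPM in liver. miR-205 averaged 33692 CPM in rumen but also 3456.5 CPM in mammary gland. The intestinal miR-192, miR-194 and miR-215 together averaged 321899 CPM in duodenum and 231841 CPM in jejunum but also 146227 CPM in liver. miR-203 and miR-206 were not listed.

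Some libraries stood apart. In mammary gland 4 samples, rice straw replicates 1, 4 and 5 and alfalfa hay replicate 1, held between 937556 and 2624975 reads, against at least 4421565 in the other 14. Their median rank correlation with the rest of the tissue was 0.908 to 0.947, below that of every other mammary sample. In liver, alfalfa hay replicate 2 held 1525 CPM of miR-205, against at most 13.0 CPM in the other liver samples, and 1896 CPM of the 5 epithelial markers of the miR-200 family, against at most 736.8 CPM elsewhere in liver. Many results that rest on these libraries are given with and without them. The others, among them the median differences of the 5 members, are for all samples.

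The family took a small share of the miRNA reads, larger in the rumen and intestinal epithelium than in the liver and the gland. Summed over the 5 members, rumen gave 0.166% ± 0.0274 (SD, n = 18) of reads, duodenum 0.140% ± 0.0166, jejunum 0.138% ± 0.0206, liver 0.0805% ± 0.0131 and mammary gland 0.0611% ± 0.0192. miR-130a was the main member by reads in every tissue. It made up 73.3% ± 4.17 of family reads in liver but 46.1% ± 5.16 in duodenum, where miR-130b held 24.6% ± 4.11 of the family, against 4.51% ± 1.27 in rumen and 2.32% ± 1.16 in liver. miR-301a held between 22.9% and 32.8% of family reads in each tissue, miR-301b at most 3.47% and miR-454 at most 2.68%. Without the 4 shallow samples the family took 0.0679% ± 0.0126 of mammary gland reads (n = 14), and without alfalfa hay replicate 2 it took 0.0796% ± 0.0130 of liver reads (n = 17).

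The tissue order split along the loci. miR-130b and miR-301b, the neighbouring pair, were highest in duodenum, then jejunum, rumen, liver and mammary gland. miR-301a, miR-454 and miR-130a were highest in rumen. Of the 50 contrasts of a member between 2 tissues, 46 passed the limma test at an adjusted p of 0.05. The other 4 were miR-130a, miR-301a and miR-454 between duodenum and jejunum, and miR-130a between duodenum and liver.

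**Figure D1:**
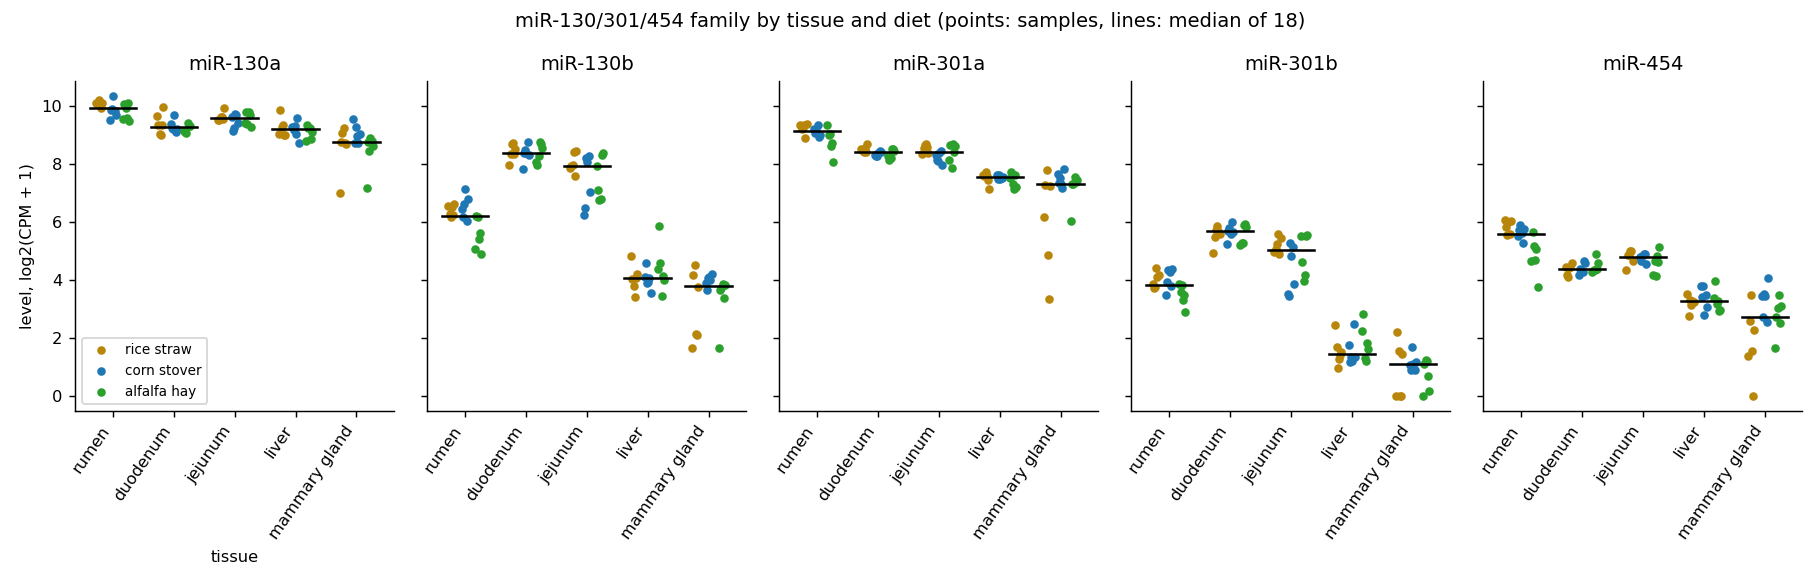
Level of each family member in 90 samples, on the log2(CPM + 1) scale, by tissue (x axis) and diet (colour), with a line at the median of the 18 samples of a tissue. miR-130b and miR-301b peak in duodenum, the other 3 members in rumen, and 4 mammary gland samples lie far below the rest for miR-130b, miR-301a and miR-454.

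miR-130b in duodenum ranged from 228 to 439.5 CPM with a median of 334.5, and in jejunum from 75.7 to 353 CPM with a median of 244.5. Rumen samples lay between 28.8 and 141 CPM, liver samples between 9.70 and 57.5 CPM, and mammary gland samples between 2.13 and 21.8 CPM, with medians of 73.7, 15.8 and 12.9 CPM. Every duodenum sample was above every rumen, liver and mammary gland sample, and every jejunum sample above every liver and mammary gland sample, while duodenum and jejunum overlapped. On the log2(CPM + 1) scale miR-130b was lower in rumen than in duodenum by -2.23 (SE 0.20, limma adjusted p = 2.46e-17) and higher in duodenum than in jejunum by 0.73 (SE 0.20, adjusted p = 0.0066). The difference between duodenum and liver was 4.24 (SE 0.20, adjusted p = 8.56e-34), an 18.9-fold difference on that scale.

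miR-301b, its neighbour, had the same order at a lower level. It ranged from 29.6 to 63.5 CPM in duodenum (median 50.2), from 9.97 to 46.7 CPM in jejunum (median 31.7) and from 6.46 to 20.5 CPM in rumen (median 13.2). Liver samples held 0.923 to 6.02 CPM (median 1.73), the product of 4 to 42 reads. In mammary gland the range was 0 to 3.65 CPM (median 1.12), and the 4 samples without a read were the 4 shallow ones. There 3 reads would be worth 1.14 to 3.20 CPM, and the other 14 samples averaged 1.38 CPM. The part of depth in the missing reads was not tested. Rumen and duodenum did not overlap (log2 difference -1.76, SE 0.18, adjusted p = 2.86e-15), and duodenum exceeded jejunum by 0.79 (SE 0.18, adjusted p = 9.59e-04) with overlapping samples, a call that was lost with a pseudocount of 0.1 CPM (0.81, adjusted p = 0.0734).

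miR-301a and miR-454 ran the other way along the gut. miR-301a was at 545.4 ± 108 CPM (SD, n = 18) in rumen with a range of 269 to 672 CPM. Duodenum held 340.7 ± 32.7 CPM, jejunum 339.9 ± 57.2 CPM, liver 182 ± 21.9 CPM and mammary gland 146 ± 61.8 CPM. Without the 4 shallow samples mammary gland held 175 ± 25.7 CPM of miR-301a (n = 14). The rumen range overlapped both intestinal ranges but no liver or mammary gland sample reached it.

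For miR-454 rumen held 45.4 ± 14.97 CPM (range 12.4 to 65.7), duodenum 20.5 ± 3.01 CPM, jejunum 25.8 ± 4.70 CPM, liver 9.05 ± 2.45 CPM and mammary gland 6.43 ± 4.01 CPM (range 0 to 15.6). Without the 4 shallow samples mammary gland held 7.87 ± 3.29 CPM of miR-454 (n = 14). Rumen samples overlapped those of every other tissue. Rumen exceeded duodenum by 0.65 for miR-301a (SE 0.17, limma adjusted p = 3.94e-04) and by 1.02 for miR-454 (SE 0.16, adjusted p = 1.91e-08), and exceeded liver by 1.56 (SE 0.17, adjusted p = 4.58e-14) and 2.15 (SE 0.16, adjusted p = 6.79e-22). Duodenum and jejunum differed by 0.02 for miR-301a (95% interval -0.32 to 0.35, adjusted p = 0.952) and by -0.30 for miR-454 (95% interval -0.62 to 0.01, adjusted p = 0.238).

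miR-130a varied least between tissues. Its samples ranged from 725 to 1309 CPM in rumen (median 981), 562.5 to 979 CPM in jejunum (median 769), 509.7 to 999 CPM in duodenum (median 621), 427 to 932 CPM in liver (median 597) and 128.5 to 754 CPM in mammary gland (median 436). Every pair of tissues overlapped. Rumen exceeded jejunum by 0.35 (SE 0.12, adjusted p = 0.0072) and jejunum exceeded liver by 0.38 (SE 0.12, adjusted p = 0.0035), while duodenum and liver differed by 0.13 (95% interval -0.11 to 0.37, adjusted p = 0.318). The order of miR-130a rested on the scaling: with upper-quartile scaling duodenum was below liver (log2 difference -0.40, adjusted p = 3.88e-05), jejunum minus liver turned to -0.17 and rumen minus liver shrank to 0.01 (adjusted p = 0.925). Rumen minus jejunum lost its call with upper-quartile (0.18, adjusted p = 0.0658) and TMM scaling (0.07, adjusted p = 0.521).

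These counts stand against a high background. Of the 289 miRNAs tested, 72.7% were called between rumen and duodenum, 75.8% between rumen and jejunum, 84.4% between rumen and liver and 84.8% between rumen and mammary gland, with all 5 members called in each. Between duodenum and liver, with 4 members called, and between duodenum and mammary gland, with 5, the background was 82.7%. It was 84.8% between jejunum and liver, 81.3% between jejunum and mammary gland and 70.2% between liver and mammary gland, again with 5 members called each. Between duodenum and jejunum it was 11.4%, with 2 members called.

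The sizes can be read beside all miRNAs in the same way. Against mammary gland the median difference of the 5 members was 2.71 in rumen, 1.78 in duodenum and 2.09 in jejunum, beside medians of 0.34, 0.05 and 0.05 over all miRNAs tested. Against liver the medians were 2.01, 1.13 and 1.43, beside 0.47, 0.36 and 0.42. Between rumen and duodenum 3 members were higher and the miR-130b and miR-301b pair lower. White blood cell markers also differed between tissues. All 5 of 5 leukocyte markers were listed in each tissue, and their sum averaged 25196 CPM in duodenum (range 16019 to 41970) and 26061 CPM in jejunum (18568 to 31481), against 7033 CPM in rumen, 6499 CPM in liver and 4746 CPM in mammary gland. Their part in the tissue differences of miR-130b and miR-301b was not tested.

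The call between liver and mammary gland was the least firm. All 5 members were higher in liver, by 0.49 to 0.73 (adjusted p between 1.56e-04 and 0.0016). Without the 4 shallow mammary gland samples miR-130b differed by 0.22 (adjusted p = 0.254) and miR-301a by 0.06 (adjusted p = 0.511), and neither was called. In the same fit miR-130a became called between duodenum and jejunum (-0.25, adjusted p = 0.0258). A fit of only the 36 duodenum and jejunum samples also called it (adjusted p = 0.0147), together with miR-454 (-0.30, adjusted p = 0.0061). Without liver alfalfa hay replicate 2 the same 46 of 50 contrasts were called.

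Across tissues the pairs from a shared locus were alike. Over the 15 means of tissue and diet, the miRNA most like miR-130b among 238 candidates was miR-301b (Pearson r = 0.993), and the miRNA most like miR-301a was miR-454 (r = 0.981). Over the 90 samples these r were 0.980 and 0.936, and without the 5 libraries that stood apart 0.979 and 0.943 (n = 85). For miR-454 over the 90 samples miR-93 (r = 0.940) ranked above miR-301a. The points of a tissue share that tissue's level, and the tissues share the 18 cows. Within a tissue, over 18 samples, miR-130b and miR-301b had r = 0.951 in jejunum, 0.900 in duodenum, 0.821 in mammary gland, 0.755 in rumen and 0.672 in liver. miR-301a and miR-454 had r = 0.909 in mammary gland, 0.779 in rumen, 0.692 in jejunum, 0.450 in duodenum and 0.343 in liver. Without the 4 shallow samples the mammary gland r was 0.515 for miR-130b with miR-301b and 0.823 for miR-301a with miR-454 (n = 14). Without alfalfa hay replicate 2 the liver r were 0.469 and 0.235 (n = 17). By rank the partner was not always first within a tissue. miR-301b was 1st for miR-130b in duodenum and jejunum but 17th of 235 in rumen, and miR-454 was 8th of 235 for miR-301a in rumen, 69th of 233 in duodenum and 32nd of 230 in jejunum.

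The ratios within a locus can be set beside those across loci. For every 100 reads of miR-130b there were 14.1 ± 1.29 (SD, n = 18) reads of miR-301b in duodenum, 13.5 ± 2.21 in jejunum, 13.1 ± 5.40 in liver, 19.5 ± 6.25 in rumen and 7.31 ± 5.79 in mammary gland. For every 100 reads of miR-130a there were 54.9 ± 15.1 reads of miR-130b in duodenum but 7.74 ± 2.56 in rumen and 3.21 ± 1.73 in liver. miR-454 made 8.20 ± 1.97 reads per 100 of miR-301a in rumen, 7.63 ± 1.12 in jejunum, 6.04 ± 0.783 in duodenum, 4.996 ± 1.17 in liver and 4.09 ± 1.75 in mammary gland. Without the 4 shallow samples mammary gland held 9.40 ± 4.77 reads of miR-301b per 100 of miR-130b and 4.38 ± 1.33 of miR-454 per 100 of miR-301a (n = 14). Without alfalfa hay replicate 2 the liver ratios were 13.2 ± 5.53 and 4.88 ± 1.11 (n = 17), and liver held 2.88 ± 1.06 reads of miR-130b per 100 of miR-130a.

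**Figure D2:**
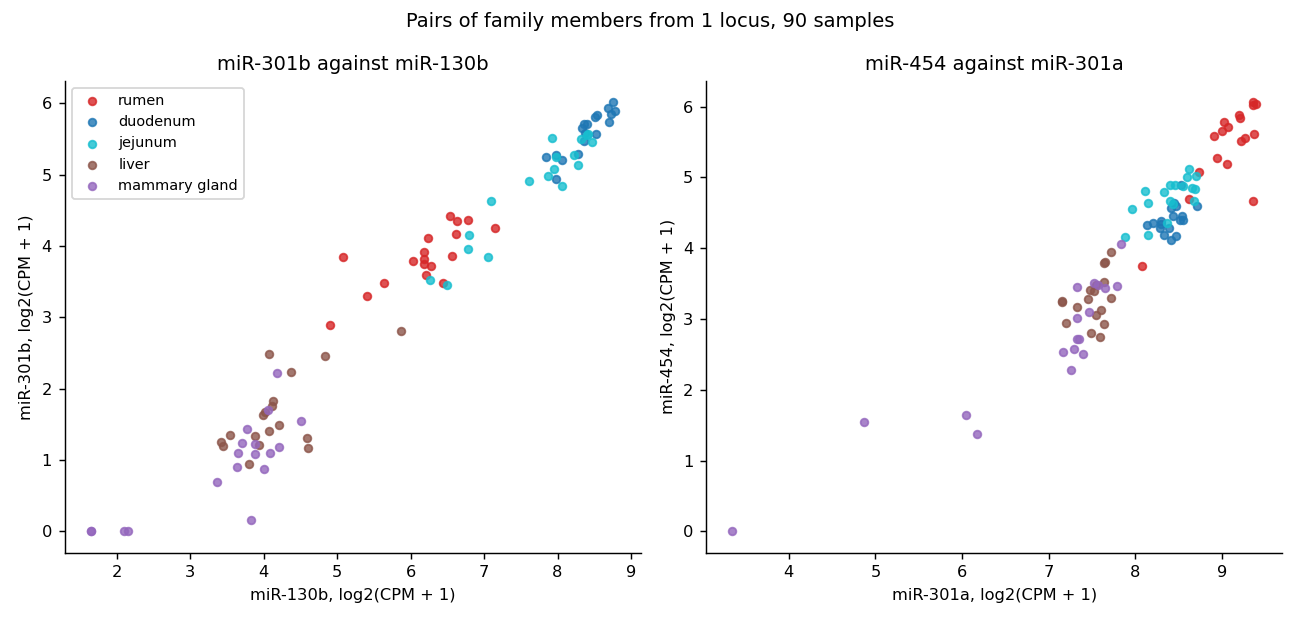
Level of miR-301b against miR-130b (left) and of miR-454 against miR-301a (right) in 90 samples coloured by tissue, both axes on the log2(CPM + 1) scale. Within each pair the points rise along a line across tissues (r = 0.980 left and 0.936 right), with the shallow mammary gland samples at the lower left.

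Outside the family, the next most like miR-130b over the 15 means were miR-138 (r = 0.954) and miR-142-3p (r = 0.945), a miRNA of white blood cells that averaged 1472 CPM in duodenum and 375 CPM in rumen. For miR-301b they were miR-9-5p (r = 0.958) and miR-138 (r = 0.926). The list for miR-301a went on with miR-20a (r = 0.969) and miR-17-5p (r = 0.967), and that for miR-454 with miR-93 (r = 0.967) and miR-17-5p (r = 0.963), all of the miR-17 family, which is known for its part in cell proliferation. miR-130a was most like miR-93 (r = 0.958), then miR-454 (r = 0.928) and miR-301a (r = 0.910).

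Jejunum had the widest spread of the miR-130b locus in the gut. In 6 jejunum samples, corn stover replicates 1, 2 and 6 and alfalfa hay replicates 2, 3 and 4, miR-130b lay between 75.7 and 135.5 CPM, and in the other 12 between 194 and 353 CPM. These 6 were the lowest by miR-130b, so the lack of overlap in miR-130b itself was set by the choice. miR-301b was at 9.97 to 23.8 CPM in those 6 and at 27.6 to 46.7 CPM in the rest, without overlap. miR-130a did not follow miR-130b and miR-301b: its range was 562.5 to 901 CPM in the 6 and 611 to 979 CPM in the rest. Over the 18 jejunum samples miR-130b had r = 0.188 with miR-130a. Among 230 candidates miR-33a had the highest r with miR-130b after miR-301b (0.881), and miR-10b the lowest (-0.884). Both were named after these r were seen. The leukocyte marker sum had r = 0.562 with miR-130b, 0.666 with miR-301b, 0.626 with miR-130a, 0.716 with miR-301a and 0.209 with miR-454. The 6 samples were singled out after their values were seen, and none of them came from rice straw. However, rice straw replicate 5, the next lowest for miR-130b at 194 CPM, held 64189 CPM of miR-10b. The 6 held 41045 to 75615 CPM of miR-10b, and the remaining samples 16480 to 28536 CPM.

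The forage contrast asked whether alfalfa hay differed from the crop residues, and in rumen epithelium 2 of the 5 members were lower on alfalfa hay. miR-130b and miR-454 fell to a little over 50% of their level on the other diets. miR-301b, miR-301a and miR-130a did not pass the test. Alfalfa hay was set against the mean of corn stover and rice straw within the 18 rumen samples, over 335 miRNAs. By median rank correlation with the rest of the tissue, alfalfa hay replicates 1 (0.954) and 6 (0.961) ranked lowest of the rumen samples. They also held the lowest miR-130b (32.8 and 28.8 CPM) and miR-454 (24.3 and 12.4 CPM). Alfalfa hay replicate 2 ranked highest, at 0.979. The part of this in the contrast was not tested.

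miR-130b was at 28.8 to 72.9 CPM on alfalfa hay (median 45.0), 64.2 to 141 CPM on corn stover (median 92.4) and 71.9 to 97.7 CPM on rice straw (median 84.0). Of the 6 alfalfa hay samples 4 lay below every other rumen sample, and replicates 2 and 3 overlapped them. The log2 difference was -0.90 (SE 0.21, limma adjusted p = 0.0166), with 6 of 6 samples below the mean of the other diets. Without alfalfa hay replicate 6, the lowest sample, it was -0.77 (adjusted p = 0.0547) and the call was lost.

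miR-454 was at 12.4 to 49.3 CPM on alfalfa hay (median 28.8), 37.9 to 58.2 CPM on corn stover (median 49.7) and 46.0 to 65.7 CPM on rice straw (median 60.2). Here 5 of the 6 alfalfa hay samples lay below every other rumen sample, and replicate 2 overlapped. The log2 difference was -0.91 (SE 0.21, limma adjusted p = 0.0166), with 6 of 6 samples below the mean of the others. It stayed called in each of the 18 fits that left out a rumen sample, with values from -1.07 to -0.69 and adjusted p of at most 0.0432.

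The other 3 members did not pass the test. miR-301b was at 6.46 to 13.4 CPM on alfalfa hay (median 10.6) against 10.2 to 20.5 CPM on the other diets (median 15.2), a log2 difference of -0.53 (SE 0.18, limma adjusted p = 0.0799), with 3 of 6 samples below all others. miR-301a was at 269 to 653 CPM against 478 to 672 CPM, a difference of -0.38 (SE 0.15, adjusted p = 0.121), again with 3 of 6 below all others. miR-130a was at 725 to 1103 CPM against 731 to 1309 CPM, a difference of -0.18 (95% interval -0.46 to 0.09, adjusted p = 0.392), and the groups overlapped almost whole.

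**Figure D3:**
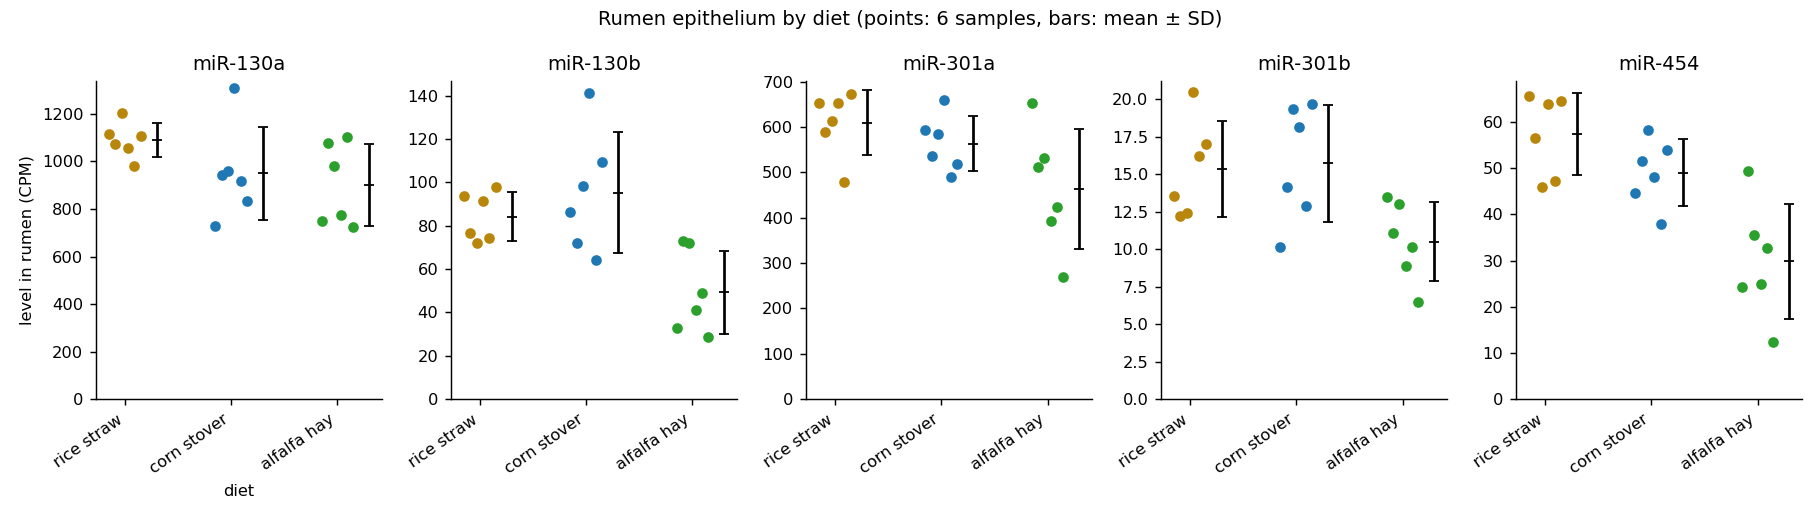
Level in CPM of each member in the 18 rumen samples by diet, with points for samples and a bar for the mean ± SD of the 6 samples. The alfalfa hay samples of miR-130b (28.8 to 72.9 CPM) and miR-454 (12.4 to 49.3 CPM) lie mostly below the other diets, while those of miR-130a are mixed with them.

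With 2 of 5 members called, the background in this contrast was 6.57%, or 22 miRNAs, 5 higher and 17 lower. With upper-quartile scaling the split was 8 higher and 5 lower, and with TMM scaling 5 higher and 5 lower. The median over all miRNAs was -0.16 as deposited and -0.02 and -0.04 after these scalings, and the median of the 5 members was -0.53 as deposited. miR-130b and miR-454 stayed called under both. Over all alternatives that kept the 18 samples miR-130b lay between -0.92 and -0.74 (limma or edgeR adjusted p from 0.011 to 0.0436) and miR-454 between -0.93 and -0.75 (adjusted p from 0.0065 to 0.0376). The edgeR quasi-likelihood test on recovered reads called 12 miRNAs and the same 2 members.

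White blood cell markers were lower in rumen on alfalfa hay too. All 5 of 5 leukocyte markers had negative differences, with a median of -0.80, and miR-155 (-1.05, SE 0.23, limma adjusted p = 0.011) and miR-142-3p (-0.80, SE 0.24, adjusted p = 0.0489) were called. Their summed level was 2931 to 9240.5 CPM on alfalfa hay and 5744 to 9560 CPM on the other diets, with the lowest values in alfalfa hay replicates 4 and 6. Most of that sum was miR-142-5p, which averaged 6083 CPM in rumen and was not called (-0.48, SE 0.21, limma adjusted p = 0.15). No defining marker was at 0. Over the 18 rumen samples the summed level had r = 0.762 with miR-454, 0.717 with miR-301b, 0.711 with miR-301a, 0.699 with miR-130b and 0.556 with miR-130a. Over the 12 samples of the other diets these r were, in the same order, 0.189, 0.415, 0.03, 0.296 and 0.258. Of the 5 epithelial markers miR-141 was called and higher (0.66, SE 0.18, adjusted p = 0.0385). miR-200a (0.19), miR-200b (0.11), miR-200c (0.06) and miR-429 (-0.30) were not called. Nor were any of the endothelial (0 of 2), smooth muscle (0 of 2) and blood cell markers (0 of 3). The part of these cells in the result was not tested.

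The relatives with a shifted seed, miR-148a, miR-148b, miR-152, miR-19a and miR-19b, whose seeds overlap that of the family moved by a base, were read beside it. In rumen 1 of 5 was called on alfalfa hay, miR-148a, which was lower by -0.45 (SE 0.13, limma adjusted p = 0.042). miR-152 was at 0.50 (adjusted p = 0.097), opposite in sign to the family, and the median of the 5 relatives was -0.21. Over the tissue pairs 40 of 50 contrasts of the relatives were called. By mean CPM miR-148b, miR-19a and miR-19b were highest in rumen, as miR-454 was. The order of miR-148a was the reverse, highest in mammary gland (135420 CPM on average) and lowest in rumen (12237 CPM). miR-152 was highest in liver and also lowest in rumen.

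In the other 4 tissues 0 of 20 contrasts of a member on alfalfa hay were called by limma, 0 had an unadjusted p under 0.05 and 0 were called by edgeR. The log2 differences ran from -0.13 to 0.09 in duodenum, -0.18 to 0.11 in jejunum, -0.12 to 0.36 in liver and -0.38 to 0.39 in mammary gland. The background was 0% in duodenum, liver and mammary gland, where 12, 12 and 4 miRNAs had an unadjusted p under 0.05 and edgeR called 0, 1 and 0. In jejunum it was 6.85%. The 95% interval of miR-454 was -0.16 to 0.35 in duodenum and -0.49 to 0.12 in jejunum and, at its widest, -0.66 to 0.99 in mammary gland. In liver the largest value, 0.36 for miR-130b, became 0.06 without alfalfa hay replicate 2.

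**Figure D4:**
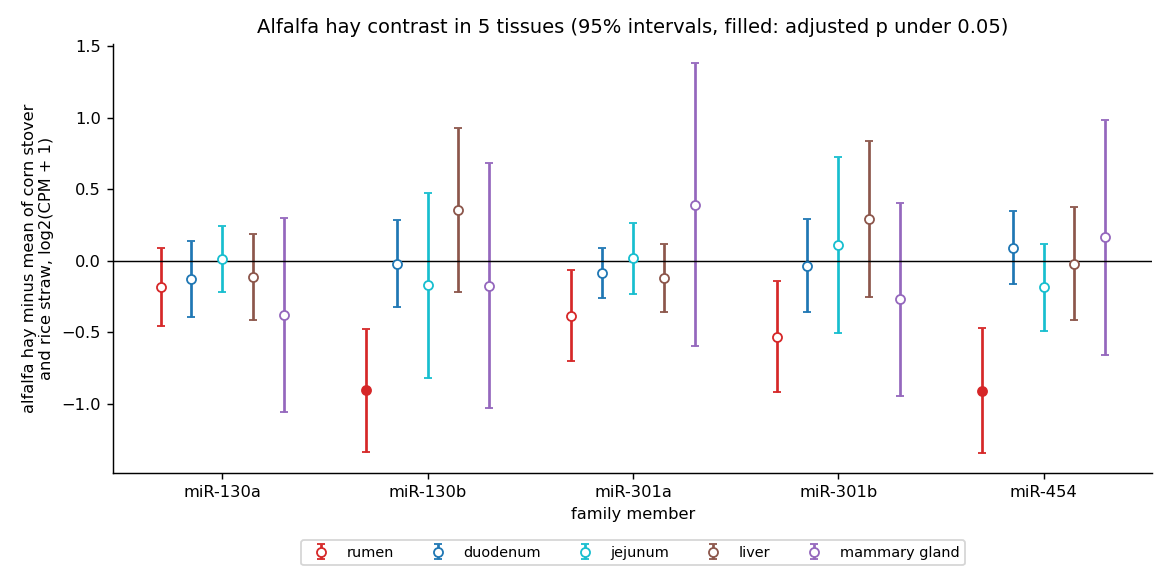
Difference between alfalfa hay and the mean of corn stover and rice straw on the log2(CPM + 1) scale for each member in each tissue, with 95% intervals and filled points where the adjusted p was under 0.05. The rumen points of miR-130b (-0.90) and miR-454 (-0.91) are the filled ones, and the mammary gland intervals are the widest for every member.

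The difference between rumen and the other tissues was tested directly. For miR-454 the rumen contrast was lower than the mean of the other 4 by -0.92 (SE 0.27, limma adjusted p = 0.0254), and it was lower by -0.90 for miR-130b (SE 0.34, adjusted p = 0.105). miR-301b was at -0.55 (adjusted p = 0.369), miR-301a at -0.44 (adjusted p = 0.455) and miR-130a at -0.03 (adjusted p = 0.975). With 1 of 5 members called, the background was 4.84% of 289 miRNAs. The call of miR-454 was lost with a pseudocount of 0.1 CPM (-1.01, adjusted p = 0.15). miR-130b was called without mammary gland alfalfa hay replicate 1 (-0.99, adjusted p = 0.0374) and without all 4 shallow mammary gland samples (-0.85, adjusted p = 0.031).

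Corn stover against rice straw separated the crop residues from each other, and few members differed. In rumen 0 of 5 members were called, with differences from -0.22 to 0.14, and the background was 0%, with 12 miRNAs at an unadjusted p under 0.05 and 0 calls by edgeR. In duodenum and liver 0 of 5 were called as well and the background was 0%, with 45 and 28 miRNAs at an unadjusted p under 0.05 and 0 calls by edgeR in either. No member reached an unadjusted p under 0.05 in these 3 tissues.

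In jejunum the background was 28.6%, or 96 miRNAs, 31 higher and 65 lower on corn stover, and 0 of 5 members were among them. With TMM scaling the split was 65 higher and 36 lower. miR-301b was at 9.97 to 37.8 CPM on corn stover (median 20.5) and 29.0 to 46.7 CPM on rice straw (median 34.9), a difference of -0.86 (SE 0.34, limma adjusted p = 0.0615). miR-130b was at 75.7 to 310 CPM against 194 to 353 CPM, a difference of -0.65 (SE 0.36, adjusted p = 0.168), and miR-301a at -0.31 (SE 0.14, adjusted p = 0.0877), which with upper-quartile scaling was called (-0.26, adjusted p = 0.0434). The diets overlapped for all 3. By unadjusted p 2 members, miR-301a and miR-301b, were under 0.05, and edgeR called 0.

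In mammary gland the background was 26.6%, or 86 miRNAs, 81 higher and 5 lower on corn stover. With upper-quartile scaling the split was 10 higher and 27 lower, and the median of all miRNAs moved from 0.63 to -0.09. miR-454 was the member called, at 4.81 to 15.6 CPM on corn stover (median 9.90) and 0 to 10.04 CPM on rice straw (median 2.87), a difference of 1.41 (SE 0.46, limma adjusted p = 0.0307). This call was lost with upper-quartile scaling (0.83, adjusted p = 0.205), TMM scaling (0.91, adjusted p = 0.138), edgeR (1.19, adjusted p = 0.105) and a pseudocount of 0.1 CPM (adjusted p = 0.0532). miR-301a was at 142 to 226 CPM against 9.17 to 219.9 CPM, a difference of 1.35 (SE 0.55, adjusted p = 0.0713). The diets overlapped for both.

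The 3 lowest rice straw samples were the shallow ones. Without the 4 shallow samples miR-454 differed by 0.51 (adjusted p = 0.299), and miR-130b (-0.17) and miR-301b (-0.59) changed sign. In those 4 samples miR-130b was at 2.13 to 3.43 CPM, against 9.34 to 21.8 CPM in the other 14, and miR-301a at 9.17 to 70.9 CPM against 142 to 226 CPM. miR-454 was at 0 to 2.13 CPM against 3.84 to 15.6 CPM, while miR-130a at 128.5 to 608 CPM overlapped the 346 to 754 CPM of the rest. Over the 18 mammary gland samples the leukocyte marker sum had r = 0.910 with miR-301a, 0.857 with miR-454, 0.817 with miR-130b and 0.370 with miR-130a (range of the sum 572.9 to 9370 CPM). Over the 14 deeper samples these r were 0.073, 0.255, 0.327 and 0.443 (range 3106 to 9370 CPM). Its part, and that of depth, in the difference between diets was not tested.

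**Figure D5:**
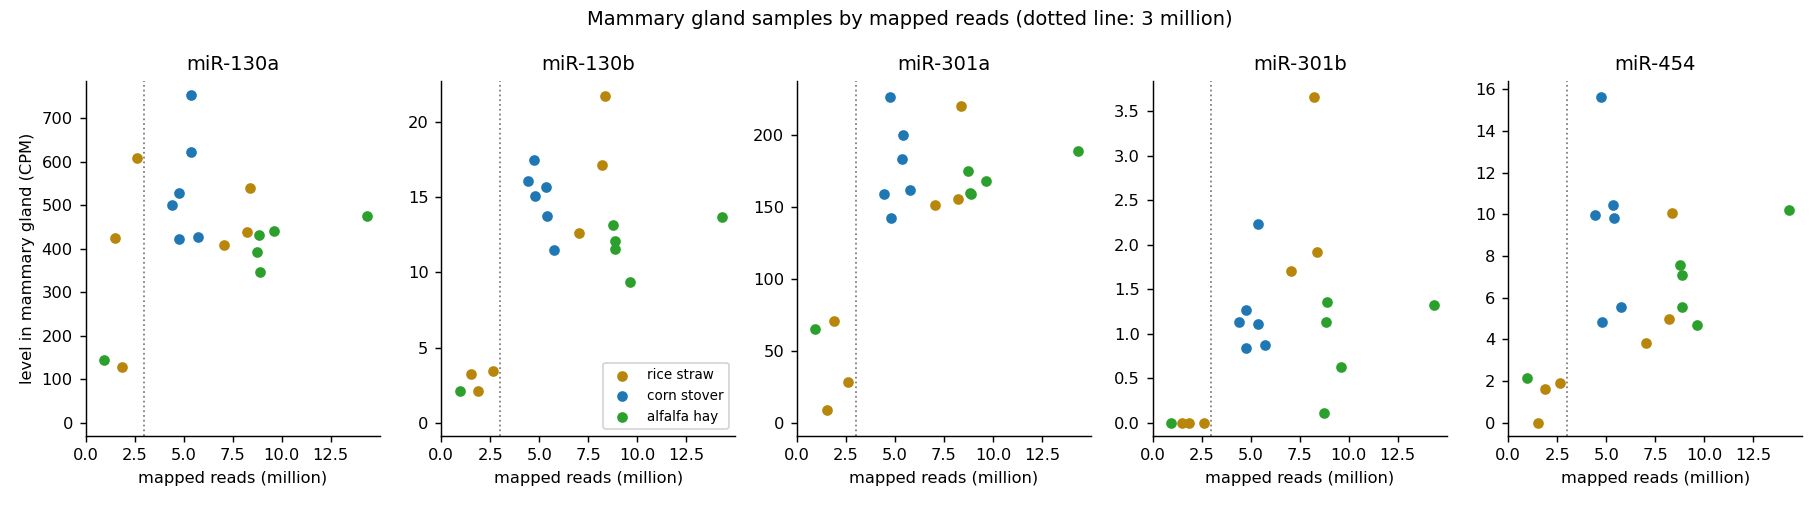
Level in CPM of each member in the 18 mammary gland samples against mapped reads, coloured by diet, with a dotted line right of the 4 shallow samples. The samples left of the line hold the lowest miR-130b, miR-301a and miR-454 values, and miR-301b is at 0 in all 4 of them.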

How the data were processed

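Small RNA from 90 tissue samples was sequenced by the authors (TruSeq Small RNA, Illumina HiSeq, 50 bp reads). Per the labels and the study's methods, low-quality reads were removed with CASAVA 1.8, and reads longer than 15 nt were aligned with sRNAbench to bovine miRBase 22 precursors. The deposited values are CPM, computed by the authors as reads of a miRNA over the reads mapped to all annotated miRNAs. A miRNA read counts as 1 whatever its length, so CPM was not divided by length. 100% of the values were whole multiples of 1 read within 0.1 reads, which gave the mapped reads (3 reads were worth 0.192 to 3.20 CPM). Intervals and floors cover counting error or sample spread only. No sample pair was identical.

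Groups followed the labels' tissue and diet. Log2(CPM + 1) was fitted with limma 3.58.1 (R 4.3.3, eBayes with trend, Benjamini-Hochberg, threshold 0.05) on 1 fit of 90 samples for tissues and for the difference of the alfalfa hay contrast, and on 18 samples per tissue for diets. A miRNA was tested in a fit where over 50% of the samples of at least 1 of its tissues exceeded 1 CPM. Alternatives were pseudocounts of 0.1 and 5 CPM, upper-quartile (75 percent) and TMM scaling, and edgeR 4.0.16 on recovered reads. Others were no filter or a mean of at least 10 CPM, fits of only the 36 samples of a tissue pair or of all 90 samples, and leaving out samples. A replicate block was also tried, by diet and number in the fit of 90 samples and by number alone in the fits per tissue. Fits were tested on simulated data. Tables and figures used Python 3.11.15, pandas 2.3.3, numpy 2.4.6 and matplotlib 3.10.9.

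The miRNAs named are the members, the 3 most like each over the 15 means among those with a mean of at least 10 CPM, 5 relatives with a shifted seed, and markers. miR-33a and miR-10b in jejunum were named after their values were seen. Members and lists were chosen with earlier results of these data known. Gene neighbours came from the start and end positions of genes in the RefSeq table of ARS-UCD2.0.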

Additional observations from a re-analysis of the deposited data

Results flagged for a closer look

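Of 75 groups of 6 samples (5 members, 5 tissues, 3 diets), 8 held a sample far from the other 5, by Dixon's test at the 95% level, which divides the gap to the nearest sample by the range of the group. Chance flags about 1 group in 20. In liver alfalfa hay, replicate 2 was highest for miR-130b, at 57.5 CPM against 9.85 to 23.1 CPM in the others, and for miR-454, at 14.5 CPM against 6.65 to 9.49 CPM. That library also held 1525 CPM of miR-205 and the highest leukocyte marker sum of the liver samples (10633 CPM), while its miR-122 was at 11014 CPM, within the liver range. The part of other cells or of another sample in these values was not tested.

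The lowest miR-301a value in mammary gland alfalfa hay, 65.1 CPM in replicate 1 against 159 to 189 CPM, came from 61 reads in the shallowest library. miR-301b stood high in liver corn stover replicate 5 (4.601 CPM, 14 reads), in liver rice straw replicate 1 (4.49 CPM, 9 reads) and in mammary gland corn stover replicate 3 (2.24 CPM, 12 reads). miR-130a stood high in jejunum rice straw replicate 6, at 979 CPM against 737 to 798 CPM, and in liver rice straw replicate 2, at 932 CPM against 511.5 to 652 CPM.

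The alfalfa hay contrast of miR-454 differed between rumen and the mean of the other 4 tissues by -0.92 on the log2 scale (limma adjusted p = 0.0254). In rumen 6 of 6 alfalfa hay samples lay below the mean of the other diets, and in duodenum, jejunum, liver and mammary gland 3, 4, 4 and 2 of 6 did.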

How the results depend on the processing

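In rumen the alfalfa hay differences of the 5 members kept their sign under every alternative run. Leaving out 1 rumen sample at a time gave 1 to 2 members called and values of -1.03 to -0.77 for miR-130b. For the difference between rumen and the other tissues, miR-130a turned to 0.06 with upper-quartile and 0.13 with TMM scaling. In that contrast miR-130b was at -0.99 without mammary gland alfalfa hay replicate 1 and -0.83 without liver alfalfa hay replicate 2. Without the 4 shallow mammary samples it was at -0.85. No rumen sample was left out of this fit. miR-454 was at -1.01 with a pseudocount of 0.1 CPM. The count of members called there was 0 with that pseudocount and 2 in both fits with fewer mammary samples. For corn stover against rice straw, where 1 of 25 was called, the count was 0 with a pseudocount of 0.1 CPM, TMM scaling, edgeR, a mean of at least 10 CPM (which left miR-454 of mammary gland untested) and without the 4 shallow samples, 2 without alfalfa hay replicate 1, and 3 in 1 fit of 90 samples. With upper-quartile scaling miR-454 in mammary gland was lost and miR-301a in jejunum gained, which left 1.

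Values that changed sign were miR-130a in mammary gland (-0.39 upper-quartile, -0.30 TMM), miR-130b (-0.17) and miR-301b (-0.59) there without the shallow samples, miR-301b there with edgeR (-0.28), and in jejunum miR-130a (0.035 TMM) and miR-454 (0.023 upper-quartile, 0.15 TMM). For alfalfa hay in liver miR-454 was at 0.005 with edgeR. Between tissues miR-130a turned for duodenum minus liver (-0.40 upper-quartile, -0.052 TMM) and jejunum minus liver (-0.17 upper-quartile), where upper-quartile scaling moved the median of all miRNAs from 0.36 to -0.12 and from 0.42 to -0.06. The causes were not tested.

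Counts over all miRNAs moved by more than 1.5 times for alfalfa hay in rumen (22, against 13 upper-quartile, 10 TMM, 12 edgeR and 6 to 58 with 1 sample left out) and in jejunum (23, against 2 in 1 fit of 90 samples and 15 with the block), for corn stover against rice straw in jejunum (96 against 27 in 1 fit of 90) and in mammary gland (86, against 37 upper-quartile, 38 TMM, 47 edgeR and 161 in 1 fit of 90), between duodenum and jejunum (33, against 102 in 36 samples and 71 without the shallow samples) and for the difference between rumen and the other tissues (14 against 29 without the shallow samples). Single calls appeared, where the reported count was 0, for alfalfa hay in liver (edgeR, and without liver alfalfa hay replicate 2) and mammary gland (1 fit of 90), and for the crop residues in duodenum (block) and liver (without that liver sample).

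The labels share replicate numbers without saying that a number marks a cow or a pairing across diets. Deviations from the group means of same-numbered samples correlated from -0.437 to 0.580 over 180 pairs across tissues, where 54 of 180 correlated best with their own number among the 6 of their diet and the mean was above that of other numbers in all 10 tissue pairs (0.197 against -0.04 for duodenum and jejunum, 0.016 against -0.004 for rumen and duodenum), and from -0.383 to 0.595 over 90 pairs across diets, where 15 of 90 did. With a block by diet and number 46 of 50 tissue contrasts were called. The diet fits used a block by number alone, which joins different cows across diets. With it 2 members in rumen were called, and miR-301a was added in mammary gland corn stover (limma adjusted p = 0.0431), which made 2 of 25.

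Read counts were lowest for miR-301b, with 0 reads in 4 mammary gland samples and 4 to 42 in liver samples. In the 4 shallow mammary samples miR-130b and miR-454 had counts as low as 2 and 0.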
